A study of Mus musculus with 28 samples.

Results

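MGP_BALBcJ_G0031834 is 1 of the 40303 features counted in every library of this series. It was chosen by its identifier because its level in Xist-deleted B cells lay near 50 percent of the level in control B cells, so the values that show this fall are given as a description, with no test. The deposited tables do not pair feature identifiers with gene names, and 0 of the 40303 identifiers were found in the mouse gene tables used here. No gene name, chromosome, position, length or sequence is therefore given for it, and the deleted gene itself could not be used to check the library labels.

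The 28 libraries are bulk RNA-seq of B cells sorted from the spleens of female mice. WT mice carried an intact Xist and had the low dsDNA label. Xist cKO mice carried a conditional Xist deletion in B cells and had either the low dsDNA label (cKO low) or the high dsDNA label that went with lupus-like disease (cKO high). The design text describes the groups as matched for age and sex. It gives no age in numbers. CD23+ B cells were sequenced from 6 WT, 3 cKO low and 3 cKO high mice. CD11c+ age-associated B cells (ABC) came from 4 WT and 3 cKO high mice. Long-lived plasma cells (LLPC), gated as B220- CD138+, came from 6 WT and 3 cKO high mice. Neither ABC nor LLPC had a cKO low group among the samples analysed here, and in those subsets deletion and disease label cannot be told apart. The Cre driver allele, the floxed allele and whether WT mice carried Cre are not stated in the labels, and the level of the feature was therefore not set against a driver allele.

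Xist is the noncoding RNA that coats the inactive X chromosome in female cells and keeps most of its genes silent. CD23 is the low-affinity IgE receptor, which marks follicular B cells, the resting population that enters germinal centre responses. CD11c+ age-associated B cells accumulate with age and in lupus, and plasma cells are the non-dividing end stage that secretes antibody and devotes much of its messenger RNA to immunoglobulin. The labelled cell types could not be checked against their marker genes, for want of gene names.

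Levels are given as CPM, the feature's counts scaled to the library's total. Library totals ran from 2133489 to 23866710 counts, and the feature itself had between 815 and 27686 counts per library. At those counts, sampling alone gives a coefficient of variation (CV) of 0.60% to 3.50%. The least counted library was LLPC cKO high replicate 2, at 146 CPM with a 95% Wilson interval of 137 to 157 CPM, which covers counting error only. In every group the spread between libraries was wider than this counting error, with a CV from 5.99% in CD23+ cKO low to 48.0% in LLPC WT, so depth did not limit any of the levels below. In bulk RNA, fewer cells making a transcript and less transcript per cell cannot be told apart.

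In CD23+ cells the feature separated all cKO libraries from all WT libraries. The 6 WT libraries ran from 958 to 1291 CPM with a median of 1121 CPM. The cKO low libraries held 604, 540.5 and 552 CPM in replicates 1 to 3, and the cKO high libraries 486, 533 and 566 CPM. The highest cKO library thus lay well below the lowest WT library, and the WT and cKO groups did not overlap. This was set beside 197 other features with a WT level within 2-fold of its own, on TMM-scaled library sizes. Of these, 1 lay below WT without overlap in cKO low and 6 in cKO high. The WT mean was 1120.0 ± 110.3 CPM (SD, n = 6), the cKO low mean 565 ± 33.9 CPM and the cKO high mean 529 ± 40.5 CPM (SD, n = 3 each), or 50.5% and 47.2% of WT. Fitted with scaled library sizes in edgeR, the log2 difference from WT was -0.97 (SE 0.10) for cKO low, a level of 50.9% with a 95% interval of 43.7% to 59.3%. It was -1.06 (SE 0.11) for cKO high, a level of 47.8% with an interval of 41.0% to 55.8%. Both comparisons use the same 6 WT libraries. Over all 12542 features tested with edgeR at an adjusted p under 0.05, 0.0239% were called lower in cKO low and 0.0478% in cKO high. The feature was chosen on these contrasts, so nothing is read from its place among them.

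Between CD23+ cells of the 2 disease labels that carry the deletion, the levels lay close together. The cKO high libraries overlapped the cKO low libraries, and the log2 difference between them was -0.09 (SE 0.12). Its 95% interval of -0.33 to 0.15 allows a cKO high level between 79.3% and 111% of the cKO low level. Since the feature was picked for being near 50 percent in both groups, this likeness is a description too. The share of all features called by edgeR in this comparison was 0%, with 811 features at an unadjusted p under 0.05 and 36 called by DESeq2.

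The animal numbers in the names of the deposited tables fall into a main series and a separate, higher series that holds 1 WT and 1 cKO low animal. Nothing in the labels says what the series stand for. Within the higher series the CD23+ level was 958 CPM in WT replicate 6 and 552 CPM in cKO low replicate 3, which is 57.6% of that WT library. Within the main series cKO low was at 49.7% of WT (2 against 5 libraries) and cKO high at 45.9% (3 against 5). The higher series has a single pair of libraries, and these are libraries on which the feature was chosen, so the split is given as a description. CD23+ WT replicate 6 was the lowest of the WT libraries for this feature and also stood apart in having counts in 29517 features, where the other WT libraries of the subset had 16913 to 18879. Its part in the values was not tested beyond leaving it out. Without it the log2 difference from WT was -1.01 for cKO low and -1.10 for cKO high.

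**Figure D1:**
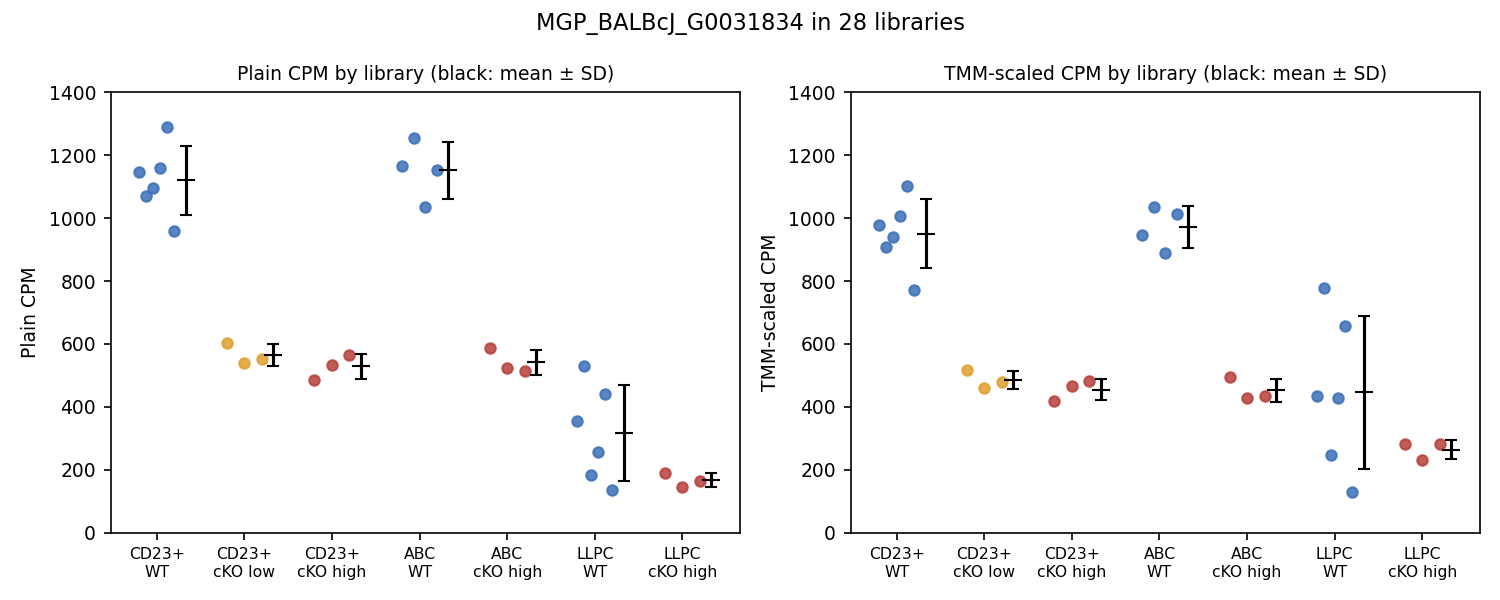
Level of MGP_BALBcJ_G0031834 in each library, as plain CPM (left) and as CPM on TMM-scaled library sizes (right), by group, where points are libraries and black marks are the mean ± SD. The cKO libraries of CD23+ cells and ABC lie between 486 and 604 plain CPM and all WT libraries of these subsets at 958 or more, while WT plasma cells spread from 137 to 531 and overlap the cKO plasma cells.

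ABC showed a like level and a like separation of the groups. The 4 WT libraries held 1167, 1255, 1034 and 1152 CPM in replicates 1 to 4, and the 3 cKO high libraries held 588, 524 and 513 CPM. Again the groups did not overlap. Of 159 other features with a WT level within 2-fold of its own, 13 also lay below WT without overlap on TMM-scaled library sizes. WT averaged 1152 ± 90.8 CPM (SD, n = 4), and cKO high at 542 ± 40.2 CPM (SD, n = 3) was at 47.0% of that. In the edgeR fit of this subset the log2 difference was -1.09 (SE 0.10), a level of 47.1% with a 95% interval of 40.4% to 55.0%. In this comparison 0.590% of 12714 features were called lower. ABC cKO high replicate 2 was the shallowest library of the series at 2133489 counts, but its 1118 counts of this feature place it at 524 CPM with a Wilson interval of 494 to 556 CPM, inside the range of the other cKO libraries of CD23+ cells and ABC.

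Plasma cells did not show this separation. The 6 WT libraries of LLPC held 356, 531, 185, 257, 440.5 and 137 CPM in replicates 1 to 6, and the 3 cKO high libraries 190.5, 146 and 165 CPM. WT replicate 3 lay within the cKO range and WT replicate 6 below every cKO library, while the other 4 WT libraries lay above it. WT averaged 318 ± 152 CPM (SD, n = 6) and cKO high 167 ± 22.2 CPM (SD, n = 3), so the ratio of the means, 52.7%, resembles that in the other subsets, but the WT libraries that it rests on differ by more than the groups do. The log2 difference in the edgeR fit of this subset was -0.77 (SE 0.48), with a 95% interval of -1.83 to 0.29, a level anywhere from 28.1% to 122% of WT. The share of the 11739 features called lower in LLPC cKO high was 0.00852%, and this feature was not among them. A level near 50 percent thus held for the CD23+ and ABC groups, while in plasma cells the interval of this fit holds both that level and no change. The interval did not hold 0 with limma and sample quality weights (-1.05, 95% interval -1.71 to -0.39) or in an edgeR fit of all 28 libraries (-0.78, 95% interval -1.40 to -0.16). Whether no change is within the interval thus depends on the tool and on the libraries fitted together.

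Single libraries moved the plasma cell value. It was -0.52 without WT replicate 2, the highest library, and -0.94 (SE 0.33) without WT replicate 6, the lowest. WT replicate 6 also differed from the other plasma cell libraries in its make-up, since its 10 leading features took 27.4% of its counts, against 40.5% to 50.2% in the other WT and 47.8% to 51.3% in the cKO high libraries of LLPC. It comes from the animal of the higher number series. The part of this difference in the level of the feature was not tested.

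In the design with all 28 libraries, the fall in cKO high was compared between subsets as a description. The log2 fall in ABC minus that in CD23+ cells was -0.01 (SE 0.43, 95% interval -0.88 to 0.87). For LLPC minus CD23+ cells it was 0.30 (SE 0.41, 95% interval -0.54 to 1.14) and for LLPC minus ABC 0.31 (SE 0.43, 95% interval -0.57 to 1.18). For LLPC minus CD23+ cells the value was 0.54 without LLPC WT replicate 2, 0.11 without LLPC WT replicate 6 and 0.03 with limma. For LLPC minus ABC it was 0.55, 0.14 and 0.05. The intervals of the edgeR fit are wide because 1 estimate of the spread per feature is shared by all subsets, that of WT plasma cells included, and they do not show that the fall was equal.

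Between the sorted subsets of WT mice, plasma cells held less of the feature than either B cell subset. No contrast between subsets was used in choosing it. Its WT levels in CD23+ cells and ABC did enter the ratios it was chosen on, so this comparison is not fully separate from that choice. WT LLPC stood at 28.4% of WT CD23+ cells and 27.6% of WT ABC in plain CPM, and the highest LLPC library, at 531 CPM, lay below the lowest CD23+ library, at 958 CPM. Part of this gap is shared by most features. Across the 9902 features that averaged 5 CPM or more, the median log2 ratio of LLPC to CD23+ cells was -0.62 in plain CPM, where a few features fill much of a plasma cell library, and -0.005 once library sizes were scaled by TMM, a method that sets the bulk of features to no change. On the TMM scale WT plasma cells averaged 447 ± 243 CPM (SD, n = 6), WT CD23+ cells 951 ± 110.1 (n = 6) and WT ABC 971 ± 66.8 (n = 4). The highest LLPC library, at 779, then just exceeded the lowest CD23+ library, at 772.

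The edgeR fit of the WT libraries gave a log2 difference of -1.14 (SE 0.29, adjusted p = 0.00220) for LLPC minus CD23+ cells, a level of 45.3% with a 95% interval of 29.6% to 69.3%. For LLPC minus ABC it was -1.17 (SE 0.32, adjusted p = 0.00506), a level of 44.5% with an interval of 27.96% to 70.7%. Over alternative settings the edgeR, DESeq2 and limma adjusted p ran from 0.000137 to 0.0133 for the first and from 0.000438 to 0.0277 for the second. These calls are common in this comparison, with 34.5% of the 13503 features called lower in LLPC than in CD23+ cells and 28.6% lower in LLPC than in ABC, so the lower level does not single the feature out.

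WT ABC and WT CD23+ cells were not distinguishable. The log2 difference was 0.03 (SE 0.32, edgeR adjusted p = 0.966), with a 95% interval of -0.65 to 0.70 that allows a level in ABC from 63.7% to 163% of that in CD23+ cells. Here 23.4% of features were called in either direction. The fit shares its estimate of the spread with WT plasma cells, so the width of the interval is not that of these subsets alone. Without LLPC WT replicate 6 the SE was 0.22.

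In the cKO high mice plasma cells were also below both B cell subsets. The CD23+ and ABC libraries of these mice entered the ratios on which the feature was chosen. It was picked for a like fall from WT in both subsets. The level of ABC against CD23+ cells in cKO high therefore had to resemble that in WT, and it is given as a description. Plasma cells lay lowest, with every LLPC library at or below 190.5 CPM and every CD23+ or ABC library at or above 486 CPM. On the TMM scale these groups also stayed apart, with at most 281 in LLPC and at least 417 in the others. The log2 difference was -0.71 (SE 0.11, edgeR adjusted p = 5.16e-05) for LLPC minus CD23+ cells, a level of 61.0%, against a background of 29.8% of 12359 features called lower. It was -0.72 (SE 0.11, edgeR adjusted p = 7.08e-05) for LLPC minus ABC, a level of 60.8%, against 24.9% of features. Over alternative settings the edgeR, DESeq2 and limma adjusted p ran from 2.94e-09 to 0.0345 for LLPC minus CD23+ cells. For LLPC minus ABC it ran from 3.67e-09 to 0.0400. ABC minus CD23+ cells gave 0.005 (SE 0.11, edgeR adjusted p = 0.978), with an interval of -0.23 to 0.24, where 34.2% of features were called in either direction. The level in ABC cKO high thus lay between 85.04% and 118% of that in CD23+ cKO high by this interval.

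In order of plain CPM the groups ran from ABC WT and CD23+ WT, which did not differ beyond their spread, to CD23+ cKO low, ABC cKO high and CD23+ cKO high, whose libraries overlapped, then LLPC WT and last LLPC cKO high, which overlapped as well. Of the steps between neighbours in this order, only that from CD23+ WT to CD23+ cKO low had no overlap between libraries. LLPC WT, whose highest library held 531 CPM, reached into the range of the CD23+ cKO libraries.

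Table names end in a number that recurs across subsets. Taken as the animal, it gives 12 mice, 7 of them with all 3 subsets. Within animals the level in ABC stayed near that in CD23+ cells. It was 102%, 117%, 89.2% and 120.2% of the CD23+ level in the 4 WT mice with both, and 120.9%, 98.3% and 90.6% in the 3 cKO high mice. The mean log2 difference in WT mice was 0.09 ± 0.20 (SD, n = 4; exact two-sided sign-flip permutation test, p = 0.375, with 0.125 the smallest that 4 mice allow).

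Plasma cells were below CD23+ cells in all 9 animals with both subsets. The LLPC level was 31.1%, 49.6%, 16.9%, 22.1%, 34.1% and 14.3% of the CD23+ level of the same mouse in WT replicates 1 to 6, and 39.2%, 27.4% and 29.1% in cKO high replicates 1 to 3. The mean log2 difference in WT mice was -1.97 ± 0.68 in plain CPM (SD, n = 6) and -1.31 ± 0.84 on the TMM scale (exact two-sided sign-flip permutation test, p = 0.0312 on both scales, which is the smallest possible). The LLPC level was also below the ABC level in all 4 WT mice with both, by a mean log2 difference of -2.01 ± 0.78 (exact two-sided sign-flip permutation test, p = 0.125, the smallest possible). How many other features were lower in every animal was not counted. In plain CPM the median log2 ratio over features was itself -0.62 in WT and -0.92 in cKO high for LLPC to CD23+ cells. It was -0.64 in WT for LLPC to ABC. The agreement between animals thus does not single the feature out.

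**Figure D2:**
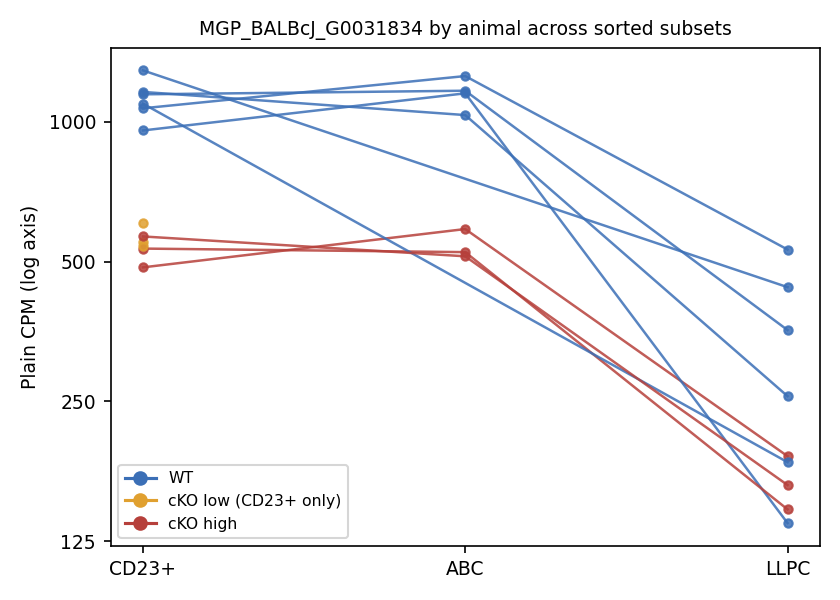
Plain CPM of MGP_BALBcJ_G0031834 on a log axis in the sorted subsets, with a line for each animal. WT lines start between 958 and 1291 CPM in CD23+ cells and fan out to 137 to 531 CPM in plasma cells, while cKO high lines stay together, from 486 to 566 CPM in CD23+ cells to 146 to 190.5 CPM in plasma cells.

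WT plasma cells were where the level varied most. Its CV was 54.5% on the TMM scale in LLPC WT, and 94.8% of the 517 features with a like level in these libraries (a mean within 2-fold) had a lower one, with a median of 27.95%. In CD23+ WT its CV of 11.6% was near the median of 10.7% for 197 such features, and in ABC WT its CV of 6.89% was below the median of 12.95% for 159. In LLPC cKO high the CV was 10.8%, on 3 libraries. Plain CPM gave a CV of 48.0% in LLPC WT, and 81.1% of 555 features of like level had a lower one. Whether the spread differed between subsets was not tested. The mice of WT replicates 2 and 3 had 1069.6 and 1095 CPM in CD23+ cells but 531 and 185 CPM in plasma cells.

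Features typical of CD23+ cells were read in the plasma cell libraries as well. For this, 186 features were taken with at least 20 CPM in CD23+ cKO high and a level at least 16-fold lower in LLPC cKO high, libraries other than the WT ones in which the sum was then read. MGP_BALBcJ_G0031834 was not among them. Their summed level ran from 47920 to 50406 CPM in CD23+ WT and from 1189 to 2685 CPM in LLPC WT, with 1102 to 1612 CPM in LLPC cKO high. In the 6 LLPC WT libraries the sum was highest in replicates 1 and 6, at 2685 and 2569 CPM, where the feature held 356 and 137 CPM. The log2 level of the feature and the sum had a Pearson r of -0.33 (exact two-sided permutation test, p = 0.469) and a Spearman rho of -0.31 (exact two-sided permutation test, p = 0.564). Without replicates 1 and 6, the libraries farthest from the median of the sum, r was 0.06 over 4 libraries. These values moved with the choices made. With features at least 8-fold lower in LLPC cKO high (368 features), r was -0.15, rho was 0.09 and r over the 4 libraries was 0.76, and on the TMM scale they were -0.10, -0.09 and 0.45. With 6 libraries the relation is thus not settled. No relation of the feature to another such sum was computed. This one was read by both Pearson and Spearman and under several settings, and its p values were not adjusted for that.

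**Figure D3:**
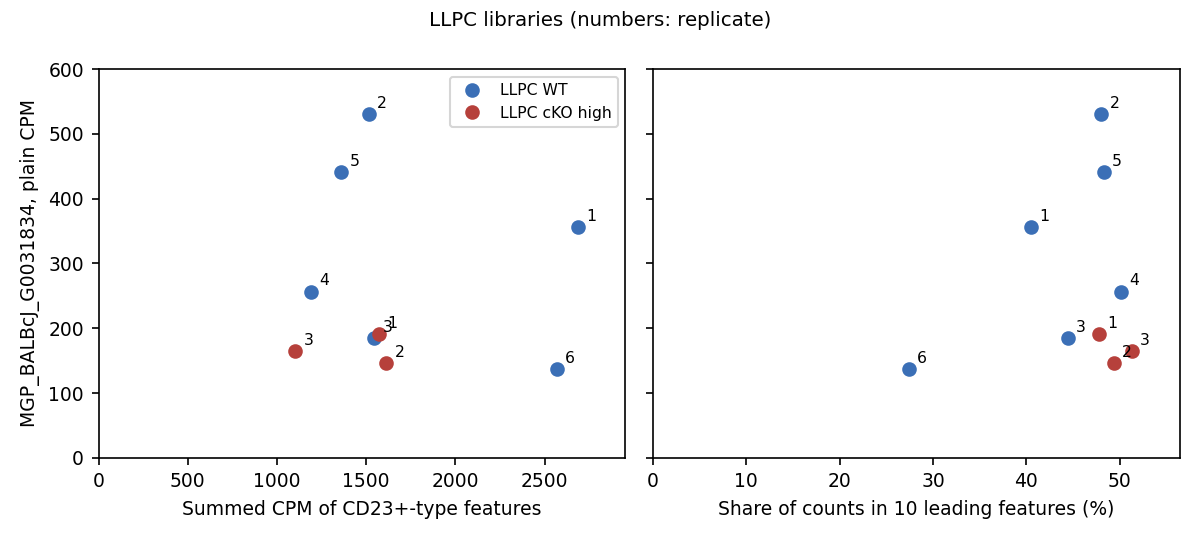
Plain CPM of MGP_BALBcJ_G0031834 in the 9 plasma cell libraries against the summed CPM of 186 CD23+-type features (left) and against the share of counts held by the 10 leading features of the library (right), with replicate numbers beside the points. WT replicate 6 stands apart on the right at 27.4%, and on the left the 2 libraries with the highest sums hold 356 and 137 CPM of the feature.

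How far the fall stands out from other features of like level was described on the TMM scale. In CD23+ cKO low the feature was at 51.1% of WT. Among 197 features with a WT level within 2-fold of its own, the median was 99.9% of WT and 90% of them lay between 90.9% and 124%. Only 1 was as low or lower, and it was nearly absent, at 0.475% of WT. In CD23+ cKO high the feature was at 47.9%, 90% of the same 197 features lay between 86.1% and 117%, and 4 were as low or lower. The lowest of these was the one nearly absent in cKO low, here at 0.370% of WT. ABC cKO high gave 46.6%, with 90% of 159 features between 75.2% and 120.4% and 3 as low or lower. LLPC cKO high gave 59.3%, with 90% of 517 features between 73.2% and 138% and 10 as low or lower.

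Of the 8522 features with at least 5 CPM in the WT libraries of all 3 subsets, 1 lay between 40% and 60% of WT in all 4 cKO groups, and it was MGP_BALBcJ_G0031834. It was also the only feature in that range in CD23+ cKO low, CD23+ cKO high and ABC cKO high combined. This count restates how the feature was chosen. Taken alone, the range held 4 features in CD23+ cKO low, 66 in CD23+ cKO high, 246 in ABC cKO high and 452 in LLPC cKO high, of 9319, 9319, 9719 and 9934 features at that WT level, or 0.0429%, 0.708%, 2.53% and 4.55%.

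**Figure D4:**
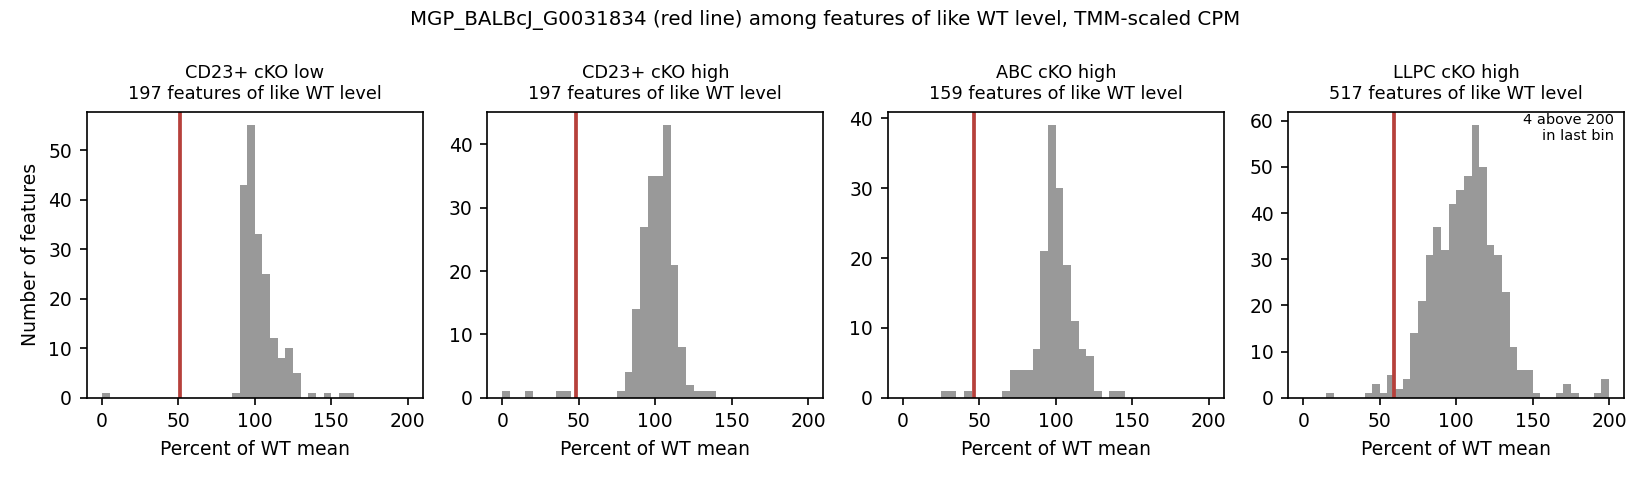
Histograms of the level in each cKO group as a percent of the WT mean (TMM-scaled CPM) for features whose WT level was within 2-fold of that of MGP_BALBcJ_G0031834, with a red line at the feature itself. It sits at 51.1%, 47.9% and 46.6% in the CD23+ cKO low, CD23+ cKO high and ABC cKO high panels, apart from most of the features, and at 59.3% on the edge of a wider spread in LLPC cKO high. Its place restates how it was chosen.

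Features with a like pattern were sought among the same 9902, by the Pearson correlation of log2 CPM on the TMM scale. Over the 28 libraries, which share animals and subsets, the most alike were MGP_BALBcJ_G0019423 (r = 0.84) and MGP_BALBcJ_G0022087 (r = 0.84). MGP_BALBcJ_G0019423 held 65.3 ± 4.64 CPM in CD23+ WT (SD, n = 6), 54.5 ± 2.81 in the cKO low and 53.2 ± 7.28 in the cKO high libraries of that subset (n = 3 each), with 25.2 ± 4.56 in LLPC WT (n = 6). In the cKO groups it was at 83.5% of WT in CD23+ cKO low, 81.5% in CD23+ cKO high, 89.4% in ABC and 87.4% in LLPC, nearer to WT than the feature it resembles. Without the LLPC libraries the correlation was 0.69 over 19 libraries, and 15 other features were more alike. MGP_BALBcJ_G0022087 then had an r of 0.63 and took place 44.

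With the WT mean of the subset subtracted from each library, the most alike were MGP_BALBcJ_G0021583 (r = 0.80) and MGP_BALBcJ_G0034315 (r = 0.78). MGP_BALBcJ_G0021583 held 20.4 ± 2.09 CPM in CD23+ WT (SD, n = 6), 18.1 ± 2.68 in cKO low (n = 3) and 15.8 ± 2.01 in cKO high (n = 3). MGP_BALBcJ_G0034315 held 103 ± 11.7, 93.9 ± 22.3 and 76.9 ± 6.67 CPM in the same groups. MGP_BALBcJ_G0021583 was thus at 89.1% and 77.8% of WT in CD23+ cKO low and high, and at 65.3% in ABC cKO high (13.7 to 8.96 CPM). MGP_BALBcJ_G0034315 was at 91.0% and 74.6%, and at 61.0% in ABC cKO high (78.4 to 47.8 CPM). Both correlations were lower without LLPC, at 0.62 and 0.70, where the features took places 177 and 39. By Spearman over all libraries they took places 28 and 16. No feature reached a correlation of 0.8 by this measure. With group means subtracted instead, so that only differences between replicates count, 60 features had an r above 0.9. The most alike reached 0.97 over 28 libraries and 0.70 without the LLPC libraries, so this likeness rests largely on the spread of WT plasma cells.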

How the data were processed

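RNA of sorted mouse B cells was measured in 28 bulk libraries. Per the labels' protocols, RNA came from TRIzol-stored sorted cells and a QIAGEN micro kit, and a Takara Pico kit for low-input total RNA gave the libraries. The tools named in the submitters' processing notes are FastQC, featureCounts and STAR 2.7.1a. Each deposited table holds raw whole-number counts of 1 library. Genome build, strand setting and molecular identifiers are not stated. Whether reads of overlapping features or near-identical copies were kept apart could not be checked.

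Groups and replicate numbers come from the sample titles. The labels call the libraries biological replicates. No 2 libraries were pooled. The feature and the comparisons were chosen with earlier results of these data known. Plain CPM uses library totals. Fits used R 4.3.3 and edgeR 4.0.16 (filterByExpr, TMM, robust quasi-likelihood, two-sided, Benjamini-Hochberg over all features tested, called at an adjusted p under 0.05), with 1 fit for the WT libraries, 1 for the cKO high libraries, 1 per subset, and 1 for all 28. The fit was tested on simulated data. Intervals of fitted values are 95% intervals. Features named as alike were the 2 with the highest correlation by each of 2 measures (prior count 2), and a further measure is given without identifiers. Median ratios over features added 0.5 CPM to both means.

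Same-animal libraries deviated from their group means together across subsets (median correlation over 9902 features 0.19 for ABC and CD23+ cells, 0.13 for LLPC and CD23+ cells, 0.10 for LLPC and ABC, against -0.06, -0.05 and -0.04 for other animals). Deviations from a group mean cancel out within the group, so a positive value for the same animal draws that for other animals down. The values for other animals are thus not a separate baseline. The pairing comes from the animal numbers in the table names. The alternatives included limma 3.58.1 (voom with quality weights) and DESeq2 1.42.0, other scalings and filters, a joint fit of all libraries, leaving out each library, and a block by replicate number or animal. Leaving out both animals of the higher number series was added after the data had been seen. Marker lists by gene name were not used, since 0 identifiers matched.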

Additional observations from a re-analysis of the deposited data

How the results depend on the processing

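Of 344 alternative values for the comparisons of the feature, 17 changed sign, and none moved across the threshold of a test. All 17 belong to ABC minus CD23+ cells, where the values lie near 0: 5 for the level in WT, 3 for the level in cKO high, and 9 for the difference of the fall, where -0.01 became 0.01 to 0.05 with single libraries or both animals of the higher number series left out. In WT this difference of 0.03 became -0.0229 with limma, -0.0775 with a replicate block by label number, -0.0287 without both animals of the higher number series, and ran from -0.0224 to 0.0657 as libraries were left out in turn. In cKO high the 0.005 became -0.0442 with limma and ran from -0.0546 to 0.0439 with libraries left out. None of these was called.

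With libraries left out in turn, the log2 difference from WT ran from -1.01 to -0.93 for the cKO low and from -1.10 to -0.997 for the cKO high libraries of CD23+ cells, from -1.14 to -1.05 in ABC and from -0.94 to -0.52 in LLPC. The animal as a replicate block changed no call, with -1.29 for LLPC minus CD23+ cells in WT. Label numbers pair no animals between WT and cKO. That block gave -0.95 for CD23+ cKO low. The correlation places of the alike features moved, with 0.79 and 0.72 by Spearman and 0.69 and 0.62 without LLPC for the first of each measure.

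The counts behind the printed background shares moved more. Features called lower in CD23+ cKO high were 6, and 30 with DESeq2, 22 with limma, 61 with no filter, 2 in the fit of all libraries and 4 to 10 with libraries left out. Another 49 were called higher there. In ABC 75 lower features became 230, 121 and 334 with DESeq2, limma and no filter, 40 with the replicate block, and 22 to 146. In CD23+ cKO low 3 became 7 with no filter. In LLPC 1 became 4 in the fit of all libraries, and 0 with the replicate block or without some single libraries. Calls in either direction for CD23+ cKO high minus low were 0, and 36 with DESeq2, 2 with limma, 82 with no filter and 12 with the replicate block. For WT ABC minus CD23+ cells 3165 became 4870 with limma. The cause was not tested.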
